A study of Oryza sativa with 6 samples.

Results

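The 10 genes described here encode core proteins of the small RNA pathways of rice: the argonautes AGO1a, AGO1b, AGO1d, AGO4a, AGO4b and AGO18, the dicer-like proteins DCL1, DCL3a and DCL4, and the RNA-dependent RNA polymerase RDR1. They were chosen by locus identifier from the 30020 genes of the authors' deposited comparison, and all 10 were found and tested. RNA-seq libraries of poly(A) RNA from seedlings of the cultivar Nipponbare were compared between oschz1 and wild-type, with 3 samples of each genotype. The oschz1 plants carried a CRISPR/Cas9 mutation of OsChz1, a histone chaperone for dimers that hold H2A or its variant H2A.Z. The study's methods describe a homozygous plant without the transgene, in which a small deletion in the second exon gives a premature stop, so the mutant group is a single line. Seedlings of both genotypes were 30 days old, after 10 days on diluted and 20 days on full-strength medium, in a light period of 14 h (30 °C) and a dark period of 10 h (28 °C). RNA of several seedlings was pooled for a sample.

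Plant small RNAs are cut from double-stranded RNA by dicer-like proteins and are loaded into argonautes, which find matching RNAs. DCL1 cuts microRNAs from hairpin precursors, and argonautes of the AGO1 type use them to cleave target transcripts or block their translation. In a separate branch, RNA polymerase IV, an RNA-dependent RNA polymerase and DCL3 make siRNAs from repeats, and argonautes of the AGO4 type guide DNA methylation with them. A further set of siRNAs, made by DCL4 with the help of RNA-dependent RNA polymerases, acts in leaf and flower development and in the defence against viruses. Poly(A) RNA-seq measures the messenger RNAs of these proteins, not the small RNAs themselves.

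The deposited table gives for each gene a mean normalized read count over the 6 libraries, the log2 fold change, the standard error (SE) of that change and the p-values of a DESeq2 Wald test, but nothing for single libraries. Positive fold changes mean higher in oschz1. A gene is called here if it differs by 1.5-fold or more and its adjusted p is 0.05 or less, thresholds taken over from the methods. The level of a gene in each genotype was worked out from its mean count and fold change, and is named an implied level. These levels are read counts not divided by transcript length, so they compare genotypes within a gene and not genes with each other. The depth of the 2 genotypes overlapped, with size factors between 0.596 and 1.49 in oschz1 and between 0.738 and 1.59 in wild-type. In bulk samples, a change in the number of cells of a type and a change in the RNA per cell cannot be told apart.

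None of the 10 genes was called in oschz1 by DESeq2, beside 7.58% of the 25945 genes tested that were called and 6.24% called higher. By the adjusted p alone, AGO18 and AGO1b were higher in oschz1 and the other 8 did not pass, beside 18.0% of all tested genes past this limit and 10.5% past it and higher. The same 2 genes were those with an unadjusted p under 0.05. All 10 genes had mean normalized counts of at least 200, a level at which 23.0% of 13903 tested genes passed the adjusted p and 4.42% were called. The count of 2 in 10 past the adjusted p is close to these shares. With only 10 genes, a count of 0 called is also near the share of 4.42%. The fold changes were positive for 6 genes and negative for 4, with a median log2 fold change of 0.02, while the median of all tested genes was -0.0049. The median size of the difference, without its sign, was 0.077 on the log2 scale for the 10 genes, 0.115 for tested genes with means of at least 200 and 0.177 for all tested genes.

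**Figure D1:**
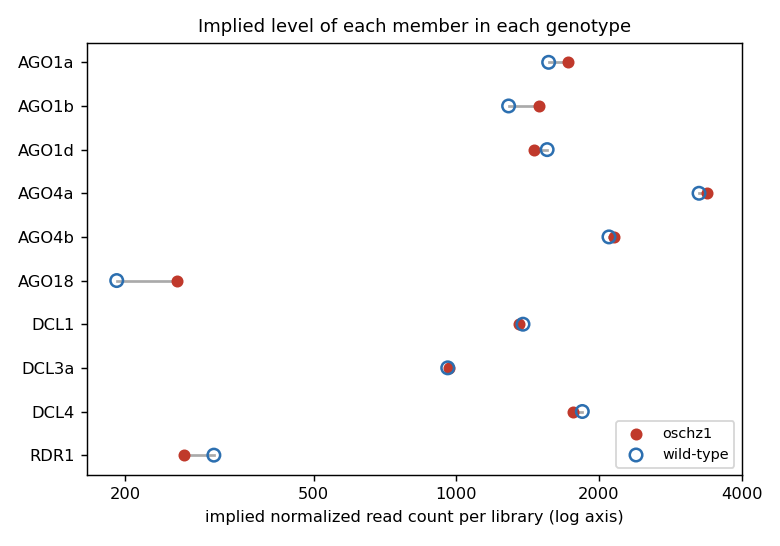
Implied normalized read count per library of the 10 genes (log axis, not divided by transcript length) in oschz1 (filled) and wild-type (open), without error bars because the table holds no single libraries. The widest gap is that of AGO18, with 258 in oschz1 and 192 in wild-type, and the symbols of DCL3a lie on each other.

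AGO18 (LOC_Os07g28850), an argonaute of a clade found in grasses, is known in rice for antiviral defence, in which it binds a microRNA that would otherwise repress AGO1. Its implied level was 258 in oschz1 and 192 in wild-type. It rose by 0.42 ± 0.14 on the log2 scale (± SE; adjusted p = 0.0187 in DESeq2 with Benjamini-Hochberg adjustment), a 1.34-fold difference with a 95% interval of 1.11 to 1.62. This was the widest difference of the 10 in either direction, and it came from the gene with the fewest reads, 153 to 384 implied per library in oschz1 and 142 to 305 in wild-type. It stayed under the 1.5-fold limit of a call, although its interval reached past that limit, the only one of the 10 to do so. Of 2080 tested genes with mean counts near its own mean of 225 (up to 25% above it, or below it by the same factor), 85.3% had a smaller difference and 17.6% passed the adjusted p. When the Wald statistic was read against a t distribution with 4 degrees of freedom in place of the normal one, its adjusted p was 0.275. That distribution takes the variance as estimated from the 6 libraries alone. DESeq2 also draws on other genes for it, so the t distribution is a strict reading here and below.

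AGO1b (LOC_Os04g47870), AGO1a (LOC_Os02g45070) and AGO1d (LOC_Os06g51310) are rice members of the AGO1 group, the argonautes that carry most microRNAs. AGO1b had an implied level of 1492 in oschz1 and 1290 in wild-type. It rose by a log2 fold change of 0.21 ± 0.076 (adjusted p = 0.035), which is 1.16-fold with a 95% interval of 1.04 to 1.28. The rise of AGO1b was therefore precise but small, and a difference of 1.5-fold lay outside its interval. Against the t distribution its adjusted p was 0.307.

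The other AGO1 genes did not pass the test. AGO1a stood at 1718 in oschz1 and 1566 in wild-type, with a log2 fold change of 0.13 ± 0.071 (adjusted p = 0.209) and an interval of 0.996-fold to 1.21-fold. AGO1d stood at 1459 in oschz1 and 1555 in wild-type, with a log2 fold change of -0.09 ± 0.068 (adjusted p = 0.428) and an interval of 0.856-fold to 1.03-fold. The fitted values of the AGO1 genes thus lay on both sides of 0, and the difference between them was not tested because the table gives no single libraries from which its error could be had. Summed over the 3 genes, the implied levels came to 4670 in oschz1 and 4411 in wild-type. A further AGO1 gene outside the 10, AGO1c (LOC_Os02g58490), had 961 in oschz1 and 910 in wild-type (log2 fold change 0.08 ± 0.080, adjusted p = 0.611).

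AGO4a (LOC_Os01g16870) and AGO4b (LOC_Os04g06770), the argonautes of siRNA-guided DNA methylation, were measured with the smallest errors of the 10. AGO4a had an implied level of 3374 in oschz1 and 3252 in wild-type, a log2 fold change of 0.05 ± 0.059 (adjusted p = 0.654). AGO4b had 2153 in oschz1 and 2100 in wild-type, a log2 fold change of 0.04 ± 0.060 (adjusted p = 0.792). Neither differed beyond its error, and their intervals, 0.957-fold to 1.12-fold for AGO4a and 0.945-fold to 1.11-fold for AGO4b, allow only small changes either way. DCL3a (listed as LOC_Os01g68120), which cuts the siRNAs that these argonautes bind, had 966 in oschz1 and 959 in wild-type. Its log2 fold change of 0.01 ± 0.074 (adjusted p = 0.960; interval 0.911-fold to 1.11-fold) was the nearest to 0 of the 10.

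Of the other dicer-like genes, DCL1 (listed as LOC_Os03g02970) makes microRNAs and DCL4 (LOC_Os04g43050) makes siRNAs from double-stranded copies of transcripts, among them the trans-acting siRNAs. DCL1 had an implied level of 1356 in oschz1 and 1383 in wild-type, with a log2 fold change of -0.03 ± 0.074 (adjusted p = 0.878; interval 0.886-fold to 1.08-fold). DCL4 had 1767 in oschz1 and 1845 in wild-type, with a log2 fold change of -0.06 ± 0.074 (adjusted p = 0.679; interval 0.866-fold to 1.06-fold). None of the 3 dicer-like genes passed the test, and their fold changes lay within 0.07 of 0 on the log2 scale.

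RDR1 (listed as LOC_Os02g50330) copies single-stranded RNA into double strands and is known for its part in antiviral defence in plants. It had an implied level of 267 in oschz1 and 308 in wild-type, from 159 to 397 implied reads per library in oschz1 and 227 to 490 in wild-type. Its log2 fold change was -0.21 ± 0.12 (adjusted p = 0.274), the lowest of the 10, with an interval of 0.733-fold to 1.02-fold. It did not pass the test, but its interval still allowed a level in oschz1 well below that in wild-type. AGO18 and RDR1, both linked to defence, had the fewest reads of the 10 and fitted differences of opposite sign, of which only that of AGO18 passed.

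**Figure D2:**
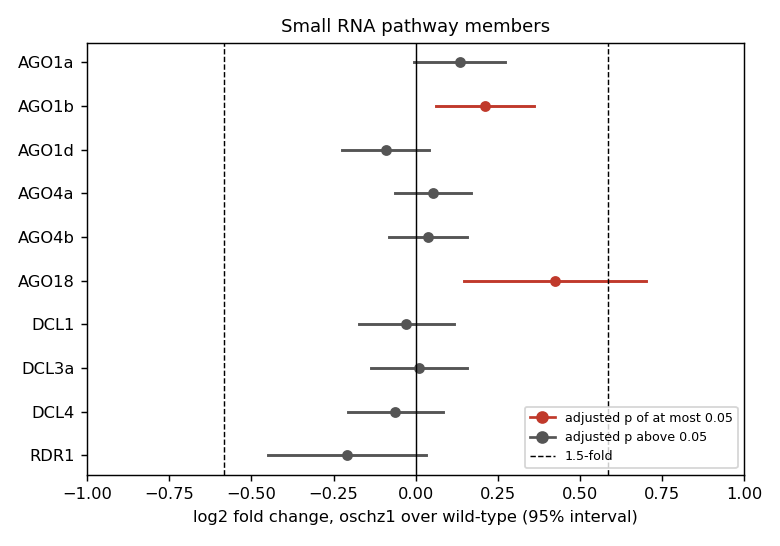
Log2 fold change of each of the 10 genes, oschz1 over wild-type, with its 95% interval (1.96 SE either side, normal) and dashed lines at 1.5-fold. The intervals of AGO18 and AGO1b lie above 0, and that of AGO18 alone crosses a dashed line.

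A fitted difference of 1.5-fold, read against the normal distribution, would have passed the adjusted p in each of the 10 genes. Such a fitted value passes where the SE is 0.224 or less. The SEs of the 10 ran from 0.059 for AGO4a to 0.14 for AGO18. A true change of 1.5-fold can be fitted smaller and fail. The limit was not worked out for the t distribution with 4 degrees of freedom, against which 460 genes passed in place of 4683. For 9 of the 10 the whole 95% interval lay inside 1.5-fold in both directions.

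The variation between libraries that the fit assigned to each gene was worked out from its SE. As a coefficient of variation beyond counting noise, it ran from 4.63% for AGO4b to 9.85% for AGO18. Such values are partly those of other genes, since DESeq2 draws each gene's dispersion toward the trend of genes of a like level. Beside 809 to 2300 genes of a like level, 6 of the 10 genes lay between the quartiles, AGO1b and DCL4 lay above them, and DCL3a and RDR1 lay below them. Counting noise made up 11.1% to 30.3% of the variance of the fold changes, the highest shares belonging to RDR1 and AGO18. Among genes of a like level, 4 of the 10 genes (AGO1a, AGO1b, AGO18 and RDR1) differed more than the median gene and 6 differed less.

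**Figure D3:**
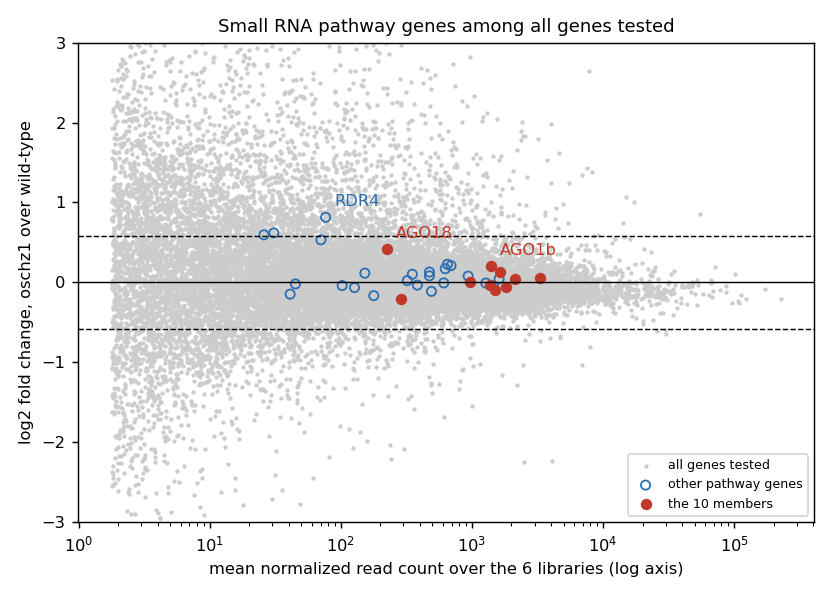
Log2 fold change, oschz1 over wild-type, against the mean normalized read count over the 6 libraries (log axis) for all genes tested (grey), with the 10 genes (filled) and other small RNA pathway genes (open), and dashed lines at 1.5-fold. Grey points beyond 3 in either direction (399 genes) lie outside the plot, and RDR4 is the labelled open symbol above the dashed line.

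Other genes of the pathways were read from a list of 28, all of them in the table, of which 24 were tested. Of the 24, RDR4 alone passed the adjusted p and was called, and the other 23 did not pass, whereas 18.0% of all tested genes passed and 7.58% were called. An unadjusted p under 0.05 was found for 4 of them, AGO2, PNH1, RDR4 and NRPD1b, each with a positive fold change. Every gene past the adjusted p also has an unadjusted p under 0.05. At least 18.0% of all tested genes therefore do, and at least 10.5% do with a positive fold change. The count of 4 in 24 is not read as a result about these genes. The fold changes were positive for 14 genes and negative for 10, with a median log2 fold change of 0.06 beside -0.0049 for all tested genes. An SE of 0.224 or less, at which a fitted 1.5-fold change passes against the normal distribution, was reached by 18 of the 24.

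RDR4 (LOC_Os01g10140), an RNA-dependent RNA polymerase whose role in rice is not well known, had an implied level of 97.6 in oschz1 and 55.5 in wild-type. It rose by a log2 fold change of 0.81 ± 0.25 (adjusted p = 0.00803), a 1.76-fold difference with an interval of 1.26 to 2.46. Its mean normalized count of 76.5 was below that of AGO18 (225), and against the t distribution its adjusted p was 0.241. The next locus, RDR3 (listed as LOC_Os01g10130), belongs to the same family and had 37.4 in oschz1 and 24.3 in wild-type, with a log2 fold change of 0.62 ± 0.36 (adjusted p = 0.273). Both fitted values were positive, but only that of RDR4 passed, and how reads of sequence shared by these neighbours were counted is not known beyond the authors' use of unique alignments. Of the remaining polymerases, RDR2 (LOC_Os04g39160), the partner of RNA polymerase IV, had 608 in oschz1 and 611 in wild-type (log2 fold change -0.01 ± 0.091, adjusted p = 0.980).

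Of the 12 other argonautes, 8 were tested and 0 passed the adjusted p in DESeq2. Of the 8, 2 had an unadjusted p under 0.05, a limit that at least 18.0% of all tested genes met. These were AGO2 (LOC_Os04g52540), with 742 in oschz1 and 642 in wild-type (log2 fold change 0.21 ± 0.085, adjusted p = 0.0688), and PNH1 (LOC_Os06g39640), an AGO10-type gene, with 700 in oschz1 and 599 in wild-type (0.23 ± 0.094, adjusted p = 0.0775). Both are named because of their values, and both missed the limit. AGO3 (LOC_Os04g52550), the neighbour of AGO2, had 31.2 in oschz1 and 20.6 in wild-type, and its log2 fold change of 0.59 ± 0.40 did not pass (adjusted p = 0.362). The 4 untested argonautes were close to silent. Over all libraries of a genotype, SHL4 (AGO7 in other plants) had 7 reads in oschz1 and 4 in wild-type, AGO12 had 3 in oschz1 and 6 in wild-type, AGO11 had 2 in oschz1 and 0 in wild-type, and AGO15 had 1 in each.

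**Figure D4:**
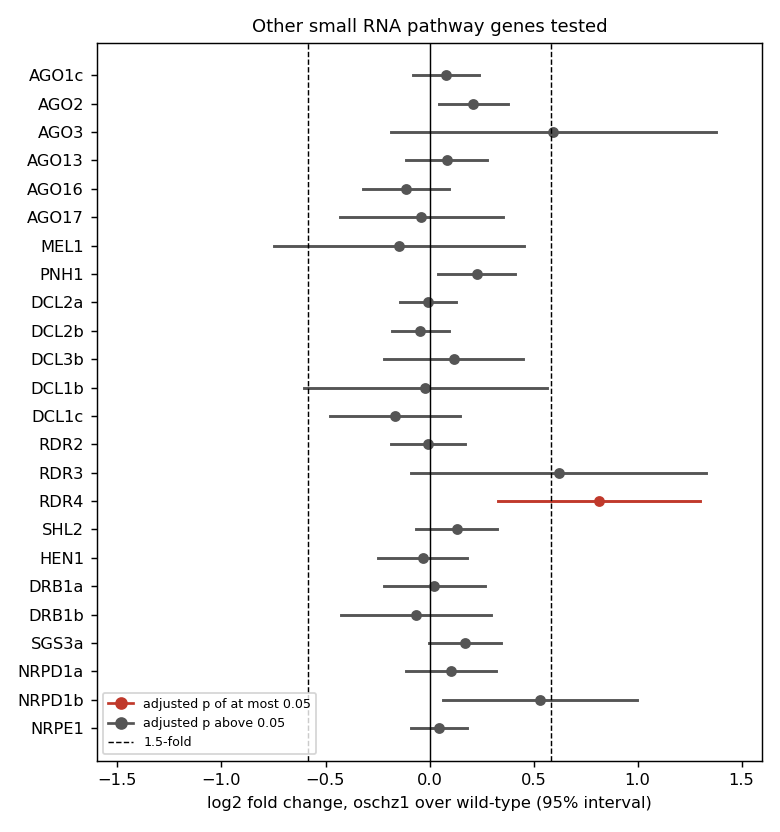
Log2 fold change of the 24 other small RNA pathway genes tested, oschz1 over wild-type, with 95% intervals (1.96 SE either side, normal) and dashed lines at 1.5-fold. RDR4 alone passed the adjusted p, and the widest intervals belong to genes of few reads such as AGO3 and RDR3.

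The 5 other dicer-like genes had log2 fold changes between -0.17 and 0.12, and 0 passed the adjusted p in DESeq2 or had an unadjusted p under 0.05. DCL2b (listed as LOC_Os09g14610), the one with the most reads, had 1433 in oschz1 and 1477 in wild-type (-0.04 ± 0.069, adjusted p = 0.778). DCL1b (listed as LOC_Os06g25250), the one with the fewest, had 44.7 in oschz1 and 45.3 in wild-type (-0.02 ± 0.30, adjusted p = 0.982), and its interval of 0.659-fold to 1.48-fold was too wide to place it. Among the 4 cofactors, 0 passed and 0 had an unadjusted p under 0.05. SGS3a (LOC_Os12g09580), whose Arabidopsis homolog works with RDR6, had 663 in oschz1 and 589 in wild-type (0.17 ± 0.088, adjusted p = 0.194), and DRB1b (LOC_Os12g01916), of the family of DCL1's double-stranded RNA binding partner, had 124 in oschz1 and 130 in wild-type (-0.06 ± 0.18, adjusted p = 0.890). The reads of DRB1b and its copy DRB1a are uncertain, since the ends of chromosomes 11 and 12 that hold them are nearly alike.

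The largest subunits of RNA polymerases IV and V, which start and end the DNA methylation branch, were 3 genes with positive fold changes. Of the 3, 0 passed and 1 had an unadjusted p under 0.05, a limit that at least 18.0% of all tested genes met. NRPE1 (listed as LOC_Os02g05880) had 1636 in oschz1 and 1586 in wild-type (0.04 ± 0.069, adjusted p = 0.771). NRPD1b (listed as LOC_Os09g38268) had 83.4 in oschz1 and 57.6 in wild-type (0.53 ± 0.24, adjusted p = 0.110), a fitted 1.45-fold difference with an interval of 1.05 to 2.00. NRPD1a (listed as LOC_Os04g48370) had 363 in oschz1 and 338 in wild-type (0.10 ± 0.11, adjusted p = 0.640).

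Marker genes were read beside these results. The leaf genes RbcS4, CAB1R and LHCB1.3 had mean normalized counts of 11869 or more and did not pass the adjusted p, and the root gene LSI1 had a mean of 232 (log2 fold change 0.09 ± 0.14, adjusted p = 0.778). The other root genes gave nearly no value, RCc3 with a mean of 0.698 and LSI2 with no entry among the genes compared. Of the 5 genes of dividing cells, MCM5, MCM6 and MCM7, which unwind DNA for replication, were called higher in oschz1, and CYCB1;1 (adjusted p = 0.185) and CDKB2;1 (adjusted p = 0.153) did not pass. All 5 had few reads, with mean normalized counts of 23.3 to 31.5, and their implied levels summed to 185 in oschz1 and 90.9 in wild-type. Genes of the defence response moved both ways. PR1b (0.88 ± 0.29, adjusted p = 0.0159) and PBZ1 (0.37 ± 0.068, adjusted p = 1.1e-06) rose, PR1a (-0.65 ± 0.23, adjusted p = 0.0292) fell, and WRKY45 (-0.12 ± 0.068, adjusted p = 0.263) did not pass. The part of dividing cells or of the defence response in the rises of AGO18, AGO1b and RDR4 was not tested.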

How the data were processed

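Stranded paired-end reads were trimmed (cutadapt), aligned to the MSU genome of Nipponbare (HISAT2), reduced to unique alignments (SAMtools), counted per gene (featureCounts) and compared between genotypes (DESeq2) by the authors. The strand setting used in counting was not given in the sources at hand, and overlapping antisense genes may therefore share reads. The mean normalized count is a deposited signal, averaged by the authors over 6 libraries after division by size factors. The deposited log2 fold changes and SEs were used as given, and the deposited Wald statistic is a score equal to their ratio within 8.23e-07. The deposited p-values are two-sided, with Benjamini-Hochberg (BH) adjusted p-values for 25945 genes (recomputed within 6.26e-07). The other 4075 genes had means of at most 1.79.

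These are the authors' own comparison columns, used because no values of single libraries are in the table. The header does not name the numerator. Positive values were taken as higher in oschz1, because the study describes most misregulated genes as upregulated and 1619 of the 1967 calls are positive. The study describes the samples of each genotype as biological replicates. The p-values rest on the spread among them and, through the dispersion trend, on that of genes of a like level.

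Size factors were read from genes of few reads: all 2243 genes with means under 0.7 were sums of whole reads within 1.6e-08. Implied levels are the pair of group means that give the mean count and the fold change, and implied reads multiply them by the size factors. Dispersions were solved from the SE with these means and size factors, and genes of a like level had means up to 25% above that of the gene, or below it by the same factor. The recovery of size factors and of implied levels was tested on simulated data, with Python 3.11.15, pandas 2.3.3 and scipy 1.17.1. The dispersion step was run there only on SEs made with its own formula. That run could not test how the step does on SEs from DESeq2. Intervals are normal at 95%.

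Symbols were paired with loci from general knowledge and checked against RefSeq (assembly ASM3414082v1). Of the 10 genes, 7 were on the same chromosome there and 3 were absent. Of 28 other genes, 13 were on the same chromosome, 1 (DRB1a) on another and 14 absent. DRB1a and DRB1b were also looked up under the shared name DRB1, and SGS3a under SGS3. The entry found for DRB1a may therefore be that of its copy, and its locus was not checked by it. Named absent symbols are written "listed as", except those given without locus. The genes, lists and tests were chosen with earlier results of these data known. Named other genes were those past the adjusted p, those with a fold of at least 1.5 and a mean of at least 10, and those with the most and fewest reads of a role. AGO2, PNH1, NRPD1a, SHL4, AGO11 and AGO12 are outside this rule and were named after their values were seen. No sequences were used, and OsChz1 itself was not analysed here.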

Additional observations from a re-analysis of the deposited data

How the results depend on the processing

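No paired analysis was possible because the deposited table holds no columns of single libraries, and leaving out each sample was not run for the same reason. Of the 10 genes, 1 (AGO18) was called at a 1.2-fold limit, against 0 at 1.5-fold, and 0 were called under the other alternatives. The 2 genes past the adjusted p became 0 at an adjusted p of 0.01 and 0 with a t distribution of 4 degrees of freedom. The ranges of the adjusted p leave out the test against a 1.5-fold change. Over the other alternatives the adjusted p ran from 0.013 to 0.275 for AGO18 and from 0.0184 to 0.307 for AGO1b. For RDR4 the range was 0.00653 to 0.241. Of the other pathway genes, 1 was called, and 0 were at 2-fold, 0 with the t distribution and 0 in a test against a 1.5-fold change. Past the adjusted p, 1 such gene became 3 at an adjusted p of 0.1 (AGO2, PNH1 and RDR4), 2 after centring fold changes (AGO2 and RDR4) and 0 with the t distribution. Over all genes, 1967 calls became 1266 at 2-fold, 3671 at 1.2-fold, 443 with the t distribution and 801 in the test against 1.5-fold, and 4683 genes past the adjusted p became 460 with the t distribution. Centring moved fold changes by 0.019 on the log2 scale and turned no sign among the 10. Adjusting p over every gene and a minimum mean of 10 changed none of these counts for the pathway genes. With 3 samples a genotype and no single libraries, whether 1 sample carries the rise of AGO18 or AGO1b cannot be told from these data.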

Other observations

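The loci next to the 10 genes were read as well, since they show whether a stretch of neighbouring genes moved together. Of the 20 flanking loci, 18 were tested, 3 passed the adjusted p and 1 was called, counts close to the shares over all tested genes (18.0% and 7.58%). The 3 that passed are given as values. The called locus was LOC_Os06g51320, next after AGO1d, which had a log2 fold change of 3.01 ± 0.35 (adjusted p = 2.26e-16 in DESeq2) at a mean normalized count of 58.3, while AGO1d itself did not pass (-0.09 ± 0.068). LOC_Os02g50320, before RDR1, rose by 0.50 ± 0.080 on the log2 scale (adjusted p = 1.12e-08) beside a fitted value of -0.21 ± 0.12 for RDR1. LOC_Os03g02960, before DCL1, had a log2 fold change of -0.30 ± 0.073 (adjusted p = 0.000601), beside -0.03 ± 0.074 for DCL1. The loci beside AGO1b and the one before AGO18 did not pass, and the one after AGO18 was untested. Of the neighbours of RDR4, LOC_Os01g10150 stood at -0.02 ± 0.056. Further out, LOC_Os01g10110, before RDR3, had a log2 fold change of 0.953 (adjusted p = 0.00115 in DESeq2). LOC_Os01g10180, after LOC_Os01g10150, had 1.49 (adjusted p = 1.32e-06 in DESeq2). The next tested loci beyond these did not pass in DESeq2. LOC_Os01g10100, before LOC_Os01g10110, had 0.05 (adjusted p = 0.9065), and LOC_Os01g10195, after LOC_Os01g10180, had -0.20 (adjusted p = 0.9195). Whether the stretch around RDR4 moved together was not tested, and loci further from the 10 genes were not read. These neighbours were chosen after the values of the 10 genes were seen, and the table gives no function for the loci named.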
